A study of Homo sapiens with 5 samples.

Results

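A set of 10 members of the S100 family of calcium-binding proteins were followed across 5 bead arrays of human prostate cancer cells, namely S100A2, S100A4, S100A6, S100A8, S100A9, S100A10, S100A11, S100A13, S100A16 and S100P. They are 10 of the 20044 genes with a named probe on the array, and of the 21 S100 genes among them. Every probe carrying 1 of these symbols was taken, which gave 17 probes, of which 12 were detected on at least 1 array at a detection p below 0.01. These 12 probes belong to 8 of the 10 genes. The members were picked with their values on these same arrays in view, so the levels and differences below are a description and were given no test.

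The arrays measured total RNA of LNCaP, an androgen-responsive prostate cancer line, and of LNRII, which is LNCaP carrying a lentiviral TGFBR2 construct and selected with puromycin. TGFBR2 encodes the ligand-binding receptor of TGF-beta, and the name of the construct carries a CMV promoter. Of the LNRII cultures, 1 received TGFB3 at 5 ng/ml and 1 was the control, both for 3 days. Of the LNCaP cultures, all labelled day 10 and puromycin-selected, 1 carried the control hairpin shCtr, 1 the hairpin shFOXA1 against the luminal transcription factor FOXA1, and 1 carried shFOXA1 and received LY2157299 at 10 µM for 3 days. LY2157299 (galunisertib) inhibits the kinase of the TGF-beta type I receptor. Whether the other LNCaP cultures received vehicle is not given for each array, and whether LNRII is 1 clone or a pool is not stated in the labels. All cultures grew in RPMI with serum and are labelled WT in genotype.

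With 1 array for each condition, no difference has a replicate check. A level is a background-corrected, quantile-normalized log2 intensity, and higher or lower, where counted, means by at least 2-fold. The 1 measure of error is the probe SD, which says how far single probes of a gene scatter in a log2 difference and was taken from genes with 2 detected probes. For the TGFB3 comparison in LNRII it was 0.22. In LNCaP it was 0.17 for the hairpin, 0.15 for the inhibitor on top of the hairpin, and 0.18 for the combination set against shCtr. How much cultures of 1 kind vary is not part of it. Where a probe was not detected on 1 side, that side was set to the detection floor of its array, and the difference is a bound. This floor, the lowest log2 level among detected probes, stood at 5.03 in the LNRII control and at 4.67 to 4.72 elsewhere. FOXA1 itself read 11.82 with shCtr, 11.26 with shFOXA1 and 11.30 with shFOXA1 and LY2157299. Against shCtr its mRNA thus differed by -0.56 and -0.52, both short of 2-fold. All 9 luminal prostate markers with a named probe, among them KLK3, KRT8 and TMPRSS2, were detected on every array. With TGFB3 in LNRII 8 of the 9 were above control, with a median of 0.35, TMPRSS2 at 1.01 and KLK3 at 0.83. Of all genes, 51.5% were above control there, with a median of 0.01, or of 0.25 when arrays were scaled to a common median. Nothing is read from this count of markers. With shFOXA1 their median was -0.07. In these bulk cultures, fewer cells that make a transcript and less RNA per cell cannot be told apart.

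S100 proteins are small EF-hand proteins that mostly act as dimers. When calcium binds, they expose a surface that grips target proteins such as annexins, and several are also released from cells and act on receptors such as RAGE (AGER) and TLR4. S100A8 and S100A9 pair as calprotectin, which binds zinc and manganese, is abundant in neutrophils, and is made by epithelial cells under stress. S100A10 differs in that it holds its target surface open without calcium and pairs with annexin A2 at the plasma membrane.

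Promoter windows are shown for the 4 members whose values ranged most over the arrays. They come from RefSeq on GRCh38.p14 and run from 250 bases before to 50 after the annotated start, 5′ to 3′ on the strand of the gene. Capitals mark TATAAA, searched on the strand of the gene, and the SMAD box CAGACA, searched on both strands, so that it can stand as TGTCTG. The windows are S100A9 at chr1:153357604-153357903 on the plus strand, S100A8 at chr1:153391024-153391323 on the minus strand (the middle of 3 overlapping windows), S100P at chr4:6693628-6693927 on the plus strand and S100A10 at chr1:151993810-151994109 on the minus strand.
S100A9: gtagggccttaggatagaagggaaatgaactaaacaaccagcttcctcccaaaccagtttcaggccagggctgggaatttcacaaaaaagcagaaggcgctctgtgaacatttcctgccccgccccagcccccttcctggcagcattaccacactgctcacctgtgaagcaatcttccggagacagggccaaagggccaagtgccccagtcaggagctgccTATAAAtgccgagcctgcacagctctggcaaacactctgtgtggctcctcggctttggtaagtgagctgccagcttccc
S100A8: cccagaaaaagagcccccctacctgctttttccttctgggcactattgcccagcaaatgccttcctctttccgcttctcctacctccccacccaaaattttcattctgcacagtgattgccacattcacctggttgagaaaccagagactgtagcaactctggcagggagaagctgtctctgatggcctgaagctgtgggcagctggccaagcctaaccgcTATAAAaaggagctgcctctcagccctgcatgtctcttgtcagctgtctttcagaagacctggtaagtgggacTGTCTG
S100P: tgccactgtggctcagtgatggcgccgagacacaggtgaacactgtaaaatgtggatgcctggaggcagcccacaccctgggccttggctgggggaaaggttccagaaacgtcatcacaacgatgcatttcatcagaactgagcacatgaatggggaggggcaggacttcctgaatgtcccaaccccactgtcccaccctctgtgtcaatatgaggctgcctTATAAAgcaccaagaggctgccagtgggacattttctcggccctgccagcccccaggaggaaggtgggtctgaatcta
S100A10: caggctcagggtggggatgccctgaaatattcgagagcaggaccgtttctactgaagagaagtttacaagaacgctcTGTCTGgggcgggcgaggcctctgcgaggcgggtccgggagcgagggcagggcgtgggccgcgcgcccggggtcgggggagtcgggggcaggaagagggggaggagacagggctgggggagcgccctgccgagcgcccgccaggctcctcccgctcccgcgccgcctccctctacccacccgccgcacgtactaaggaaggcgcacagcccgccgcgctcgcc

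The S100A9, S100A8 and S100P windows each held TATAAA, beginning at positions -29, -29 and -28 from the start. The S100A10 window held none, and its GC content was 71.7%, against 55.7% for S100A9, 52.3% for S100A8 and 56.0% for S100P. TATAAA stood in 6 of the 16 windows of the 10 members, from 5 genes (S100A4 and S100A13 besides these), and in 7.33% of all 35116 windows. The SMAD box stood in 8 of the 16 windows, from 6 genes, and in 16.9% of all windows. Windows of S100A8 overlap, so the same SMAD box and the same TATAAA of this gene are counted more than once. In the windows shown it began at position -173 of S100A10 and 44 of S100A8. The forkhead core TGTTTAC (3.42% of all windows) and the androgen response half-site AGAACA (14.8%) matched no window of the 10 members on either strand. In a search of both strands, the AP-1 motif TGANTCA (7.71%) matched in S100A2 and the C/EBP motif TTGCNNAA (10.5%) in S100A11. A match describes letters in a window and not a site in use.

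**Figure D1:**
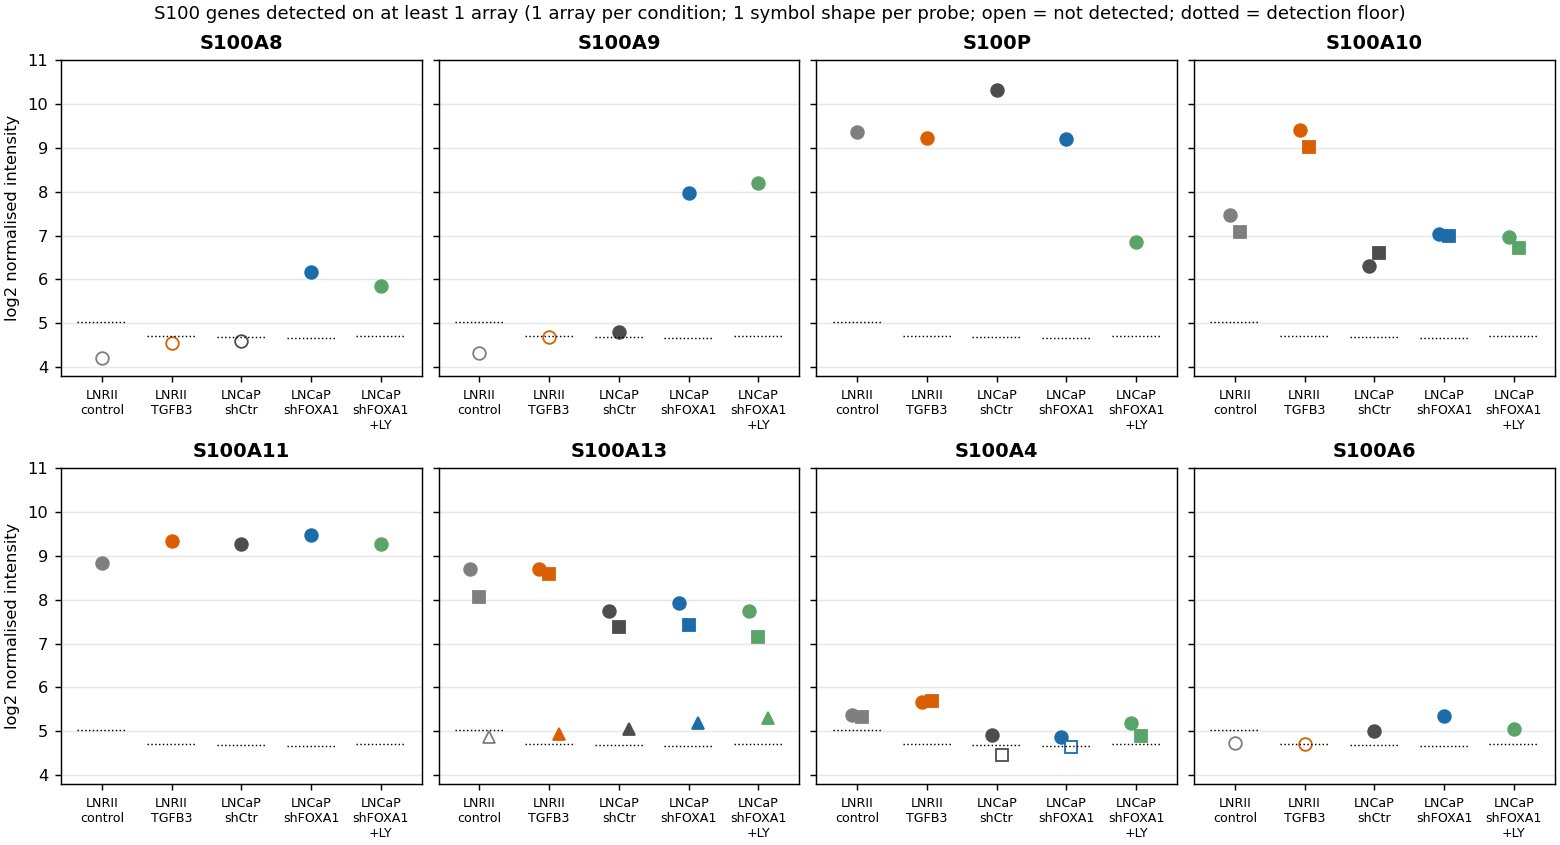
Log2 level of the S100 genes on each of the 5 arrays, 1 array per condition, with 1 symbol shape per probe, filled where detected at p below 0.01 and open where not, and the detection floor dotted. S100A8 and S100A9 read highest on the arrays with shFOXA1, S100P lowest on the array with shFOXA1 and LY2157299, and S100A10 highest in LNRII with TGFB3.

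The calprotectin subunits were near or below detection until the FOXA1 hairpin was present. S100A9 read log2 4.31 in the LNRII control and 4.68 in LNRII with TGFB3, both not detected, then 4.81 with shCtr, 7.96 with shFOXA1 and 8.19 with shFOXA1 and LY2157299. As scanned, before any correction, its bead intensities were 87.4, 100.3, 101.5, 309.7 and 351.5 in the same order. The values of both shFOXA1 arrays thus stood apart from the other 3 arrays, and the shCtr value lay just above the floor. S100A9 was 3.15 higher on the log2 scale with shFOXA1 than with shCtr, which is 8.85-fold and 18.5 times the probe SD.

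S100A8 stood apart on the same arrays, at lower signal. Its log2 levels were 4.20, 4.56 and 4.60 on the LNRII control, LNRII TGFB3 and shCtr arrays, none of them detected, against 6.17 with shFOXA1 and 5.86 with shFOXA1 and LY2157299. Its bead intensities were 82.7, 97.6, 97.1, 140.8 and 129.3. S100A8 was therefore at least 1.49 higher on the log2 scale with shFOXA1 than with shCtr (at least 2.81-fold). This size rests on the background correction: the difference was 0.56 without it and 0.83 with an offset of 50, both under 2-fold. S100A9 stayed past 2-fold under each of the 8 alternatives run, from 1.68 to 3.83. The authors' deposited table, which they had processed themselves, gives S100A9 as 226.9 with shFOXA1 and 266.2 with LY2157299 added. For S100A8 the authors' deposited table gives 8.2 with shCtr, 58.2 with shFOXA1 and 44.4 with LY2157299 added.

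Both calprotectin mRNAs also read above the control hairpin on the array with the receptor kinase inhibitor. Against shFOXA1 alone, S100A9 was 0.23 higher on the log2 scale and S100A8 differed by -0.31, each under 2-fold. Against shCtr, the array with shFOXA1 and LY2157299 was 3.37 higher for S100A9 (10.4-fold) and at least 1.18 higher for S100A8 (at least 2.27-fold). S100A8 was again under 2-fold without background correction, at 0.42, and with an offset of 50, at 0.63. The shFOXA1 and shCtr arrays are shared between these comparisons, so they are not independent of each other.

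Across all members, 2 of the 8 measured were at least 2-fold higher with shFOXA1 than with shCtr (S100A8 and S100A9), where 1.11% of 11132 genes were. S100P, as 1 of 8, was lower, where 0.377% of all genes were. With LY2157299 against shFOXA1, 0 of 8 were higher and 1, S100P, was lower, beside 0.0545% and 0.209% of 11002 genes. With shFOXA1 and LY2157299 against shCtr, the counts were again 2 and 1, beside 0.917% and 0.517% of 11019 genes. With TGFB3 in LNRII, 1 of 5 measured members, S100A10, was higher and 0 were lower, beside 1.87% and 1.16% of 10711 genes. Since the members were picked with these same differences known, nothing is read from these counts. The median log2 difference of the measured members was 0.29 with TGFB3, 0.28 with shFOXA1, -0.19 with LY2157299 against shFOXA1 and 0.17 with both against shCtr. The median of all genes lay between -0.01 and 0.01 in each of the 4 comparisons.

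**Figure D2:**
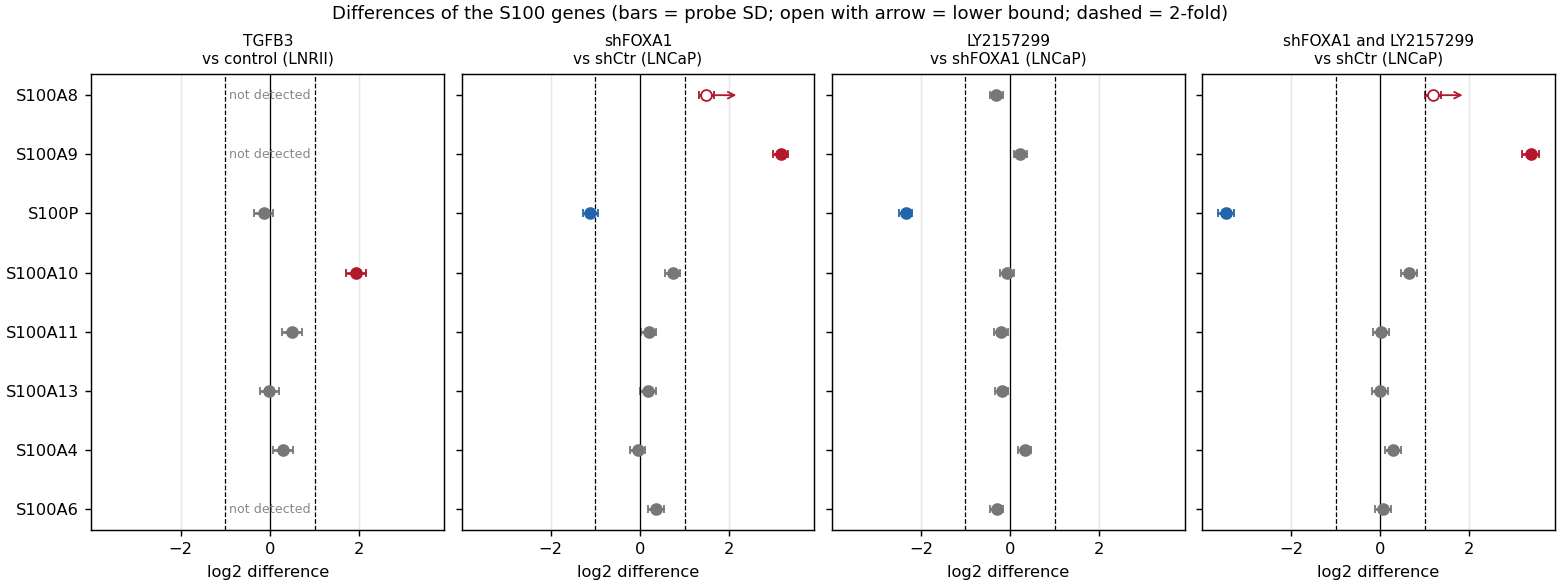
Log2 difference of each measured S100 gene, read by its brightest probe, in the 4 comparisons, 1 array per side, with bars of 1 probe SD, bounds as open symbols with an arrow and dashed lines at 2-fold. S100A9 lay beyond 2-fold upward in both comparisons with shCtr, S100P beyond 2-fold downward in the 3 LNCaP comparisons, and S100A10 beyond 2-fold upward with TGFB3, while S100P with TGFB3 changed sign to 0.13 when arrays were scaled to a common median.

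Calprotectin is commonly a myeloid product, so leukocyte markers were read on the same arrays. Of 12 such genes, ITGB2 was detected on every array and differed by 0.05 between shFOXA1 and shCtr. LYZ was detected near the floor on both shFOXA1 arrays but by a different probe on each, at 4.98 with shFOXA1 and 4.84 with LY2157299 added. CD14 was detected only on the array with shFOXA1 and LY2157299, at 4.81. PTPRC, ITGAM, CSF1R, CSF3R, MPO, ELANE, FCER1G, TYROBP and SPI1 were not detected on any array. The summed linear level of the 12 genes was 119 with shCtr, 139 with shFOXA1 and 115 with shFOXA1 and LY2157299, and 113 and 137 in LNRII without and with TGFB3. The basal epithelial markers KRT14 and KRT15 also lay near the floor. KRT14 read 4.74 with shCtr, 5.35 with shFOXA1 and 5.11 with LY2157299 added, and the summed level of the 4 basal markers with a probe was 22, 42 and 28. Their part in the S100A8 and S100A9 values was not tested.

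Genes of epithelial innate defence were read as well, since epithelia are known to make calprotectin in that setting. Of 19 such genes 9 were measured, and with shFOXA1 6 were at least 2-fold higher and 0 lower than with shCtr, beside 1.11% and 0.377% of all genes. Their median log2 difference was 1.53, against -0.01 for all genes. Of the 9, SAA2 and CXCL2 were not detected with shCtr and entered as bounds. The list was chosen with earlier results of these data known, so nothing is read from its count or median. PI3, the elastase inhibitor elafin, read 5.69 with shCtr, 8.47 with shFOXA1 and 9.21 with shFOXA1 and LY2157299. LCN2, the siderophore-binding lipocalin, read 6.90, 9.03 and 9.84, and CXCL8, the neutrophil attractant interleukin-8, read 7.61, 9.38 and 10.42. On these 3 genes each array with the hairpin stood above the control, and the array with inhibitor stood above the one without.

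With the inhibitor, members of this list went both ways. CXCL8 was 1.04 and the chemokine CCL20 1.41 higher on the log2 scale with LY2157299 than with shFOXA1 alone. These 2 of 9 measured were past 2-fold upward there and 0 downward, beside 0.0545% and 0.209% of all genes. The protease inhibitor SLPI went back toward the control, at 5.97 with shCtr, 7.08 with shFOXA1 and 6.45 with LY2157299 added. The acute-phase protein SAA1 was 1.76 higher with shFOXA1 and 2.00 with both, and the defensin DEFB4A 1.53 and 1.02. Probes for SAA1 and for DEFB4A can also bind transcripts of near-identical gene copies. Without background correction 3 of the list were past 2-fold with shFOXA1 in place of 6. Its median lay between 0.39 and 1.79 over the alternatives, lowest with no filter on dim probes. In LNRII with TGFB3, 5 of the list were measured, with 1 higher and 1 lower, beside 1.87% and 1.16% of all genes. SAA1 differed by 1.00 on the log2 scale, at the 2-fold line, and ran from 0.48 to 1.31 over the alternatives. CXCL8 differed by at least 0.23, CCL20 by -1.62, LCN2 by -0.66 and SLPI by at most -0.85. A difference between the lines was not tested.

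**Figure D3:**
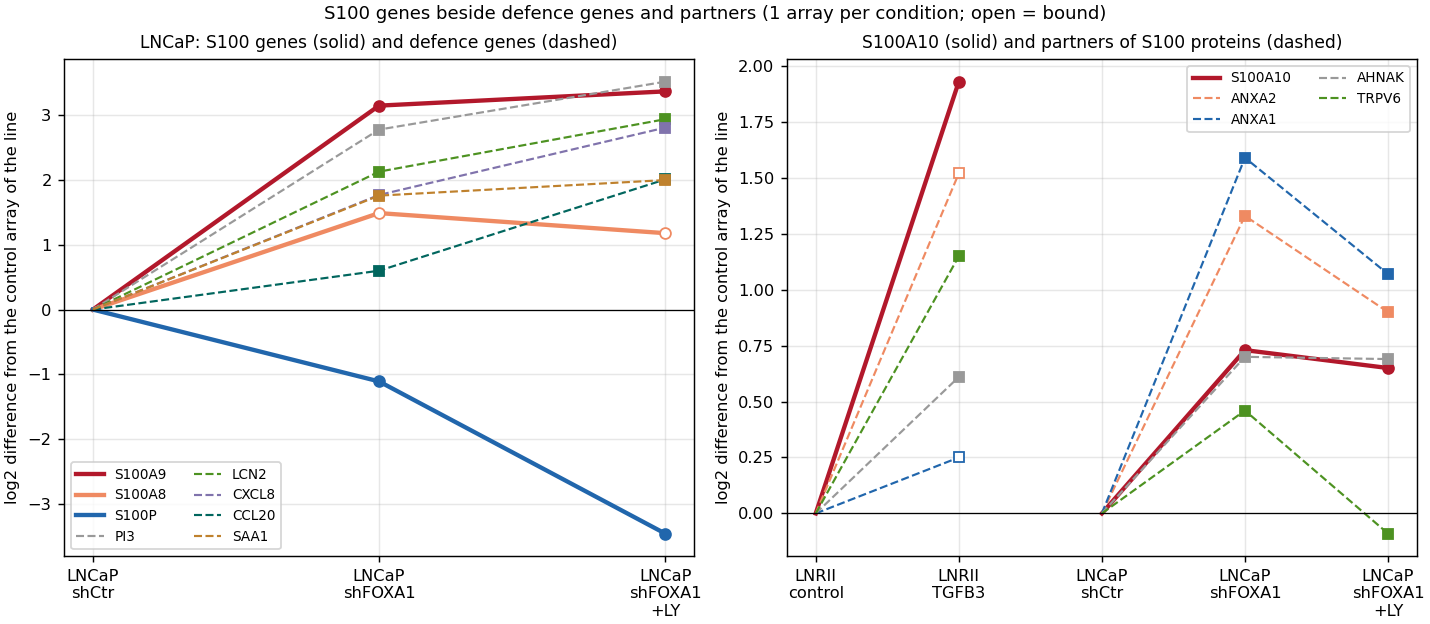
Log2 difference from the control array of the same line, 1 array per condition, with solid lines for S100 genes, dashed lines for other genes and open symbols for bounds. On the left, S100A9, PI3, LCN2 and CXCL8 lay above 1.5 on both shFOXA1 arrays while S100P lay below -1, and on the right S100A10 at 1.93 and the ANXA2 bound at 1.52 stood highest in LNRII with TGFB3.

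S100P moved the other way. S100P binds and activates ezrin, acts outside cells through RAGE, and is made by several carcinomas. It was detected on all 5 arrays, at log2 9.36 in the LNRII control, 9.23 in LNRII with TGFB3, 10.31 with shCtr, 9.20 with shFOXA1 and 6.85 with shFOXA1 and LY2157299. Its bead intensities were 667.5, 726.8, 1452.8, 633.0 and 184.7. The shCtr array was the highest of the 5 and the array with hairpin and inhibitor the lowest.

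S100P differed by -1.11 on the log2 scale between shFOXA1 and shCtr, 2.16-fold lower and 6.56 times the probe SD. With LY2157299 it differed by a further -2.34 from shFOXA1 alone, 5.07-fold lower and 15.4 times the probe SD. On the array with shFOXA1 and LY2157299, S100P was 11-fold lower than with shCtr (-3.46). These differences share arrays, so they are not independent of each other. Under the alternatives these differences ran from -1.29 to -1.03, from -2.42 to -1.81 and from -3.61 to -2.84, each past 2-fold. The authors' deposited table gives S100P as 1159.5 with shCtr, 540.3 with shFOXA1 and 101.1 with LY2157299 added. With TGFB3 in LNRII it differed by -0.14, within the probe SD of 0.22, and by 0.13 when arrays were scaled to a common median. Its partner EZR, which links the membrane to actin, was 0.43 higher with shFOXA1 and differed by -0.11 with LY2157299 against shFOXA1. EZR read 11.13, 11.56 and 11.45 on the 3 LNCaP arrays.

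S100A10 was the member that stood apart in LNRII. Its brighter probe read 7.46 in the LNRII control and 9.40 with TGFB3, against 6.31 with shCtr, 7.04 with shFOXA1 and 6.97 with shFOXA1 and LY2157299. Its second probe read 7.09, 9.02, 6.61, 6.99 and 6.72. Both probes placed the TGFB3 array highest and the shCtr array lowest. The difference with TGFB3 was 1.93 on the log2 scale by the first probe (3.82-fold, 8.75 times the probe SD) and 1.92 by the second, and the first ran from 1.59 to 2.21 under the alternatives. Bead intensities of the brighter probe were 230.1 and 811.1 in LNRII without and with TGFB3.

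In LNCaP the S100A10 probes differed from each other in size. With shFOXA1 the brighter probe was 0.73 higher than with shCtr, short of 2-fold, and the second 0.38. With LY2157299 against shFOXA1 they differed by -0.07 and -0.27, and against shCtr the array with both was 0.65 and 0.12 higher. The gap between the probes in the last comparison, from 0.12 to 0.65, is larger than the probe SD of 0.18.

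ANXA2, the annexin that S100A10 joins in a heterotetramer, followed the same order within each line. It read 4.74 in the LNRII control (not detected) and 6.55 with TGFB3, then 4.85 with shCtr, 6.18 with shFOXA1 and 5.76 with LY2157299 added. It was at least 1.52 higher with TGFB3 (at least 2.86-fold) and 1.33 higher with shFOXA1 (2.51-fold). Both were short of 2-fold without background correction, at 0.66 and 0.52, and with an offset of 50, at 0.94 and 0.76. ANXA2 has processed copies in the genome, which its probe may also read. The calcium channel TRPV6, brought to the membrane by S100A10 and annexin A2, read 8.08 and 9.23 in LNRII without and with TGFB3, a difference of 1.15 (0.88 by its second probe, and 0.97 by the first without background correction).

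Of 22 binding partners with a probe, 15 were measured with TGFB3, 2 of them higher (ANXA2 and TRPV6) and 0 lower, with a median of 0.19, beside 1.87% and 1.16% of all genes. With shFOXA1 16 were measured, 2 higher and 0 lower, with a median of 0.18, beside 1.11% and 0.377% of all genes. The other higher partner with shFOXA1 was ANXA1, which S100A11 binds, at 4.89 with shCtr, 6.48 with shFOXA1 and 5.96 with LY2157299 added. That is a difference of 1.59 with the hairpin, of 0.67 without background correction and of 0.95 with an offset of 50. AHNAK, a giant scaffold bound by S100A10 and annexin A2, was 0.61 higher with TGFB3 and 0.70 with shFOXA1 by its brightest probe. Its other probes gave 0.69 and -0.31 with TGFB3 and 0.10 and -0.10 with shFOXA1, so the direction rests on the probe. Without background correction 0 partners were past 2-fold with TGFB3, and with an offset of 50 there was 1.

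S100A11 and S100A13 were detected on all 5 arrays, and none of their measured probes differed by 2-fold in any comparison. S100A11, which works in membrane repair and keratinocyte growth control, read 8.84, 9.33, 9.27, 9.48 and 9.28 from the LNRII control to the array with inhibitor. Its log2 difference with TGFB3 was 0.50, 0.20 with shFOXA1 and -0.20 with LY2157299 against shFOXA1. S100A13, which takes part in the release of FGF1 and interleukin-1 alpha without a signal peptide, read 8.70, 8.69, 7.75, 7.93 and 7.74 by its brightest probe. Its range over the arrays was 0.96, against 0.64 for S100A11, and both LNRII arrays lay above the 3 LNCaP arrays. The lines also differ in construct, hairpin and days of culture, and these cannot be told apart.

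The 6 probes of S100A13 were not alike. With TGFB3 the brightest differed by -0.01 and the second by 0.52, so the direction rests on the probe. The brightest also turned to 0.26 when arrays were scaled to a common median. In the LNCaP comparisons the 2 probes gave 0.18 and 0.04 with shFOXA1, and -0.19 and -0.27 with LY2157299 against shFOXA1. Another S100A13 probe lay near the floor, at 4.93 to 5.30 on the 4 arrays that detected it, and the remaining 3 were not detected on any array.

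S100A4 and S100A6 sat close to the floor. S100A4, a metastasis-associated partner of non-muscle myosin, read 5.38, 5.67, 4.91, 4.86 and 5.19 by its brighter probe, and was detected on all 5 arrays. It differed by 0.29 with TGFB3, -0.05 with shFOXA1 and 0.33 with LY2157299 against shFOXA1. S100A6, known as calcyclin, was detected on the LNCaP arrays alone, at 5.00, 5.35 and 5.05, and differed by 0.36 with shFOXA1 and -0.30 with LY2157299 against shFOXA1. CACYBP, the calcyclin-binding protein, differed by -0.72 with TGFB3 and by -0.16 with shFOXA1. None of these S100A4 and S100A6 differences reached 2-fold, and at this signal smaller ones could not be read.

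S100A2 and S100A16 were not detected on any array. S100A2 is a p63-linked gene of basal epithelia, and S100A16 a widely expressed member of the family. S100A2 read 4.16 to 4.29 and S100A16 4.23 to 4.46, at lowest detection p of 0.355 and 0.0857. Close to the threshold of 0.01, S100A4 in the LNRII control was inside at 0.00649. Outside it lay S100A6 in LNRII with TGFB3 at 0.0104, S100A9 on the same array at 0.0143, and S100A8 with shCtr at 0.0182.

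Of the 11 other S100 genes with a probe, 2 were detected, both near the floor. S100A7 (psoriasin, a zinc-binding antimicrobial protein) read 5.20 with shCtr, 4.91 with shFOXA1 and 4.95 with LY2157299 added. It was not detected on the LNRII arrays. S100A14 read 4.92 with shCtr and 4.75 with shFOXA1. With shFOXA1 S100A7 differed by -0.28 and S100A14 by -0.17, against a probe SD of 0.17. Over the alternatives they ran from -0.48 to -0.09 and from -0.21 to 0.0, and no direction is read at this signal.

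Of the 10 members, 9 lie in the S100 cluster of chromosome 1, and S100P lies on chromosome 4. In the gene order of GRCh38.p14, 63 genes from S100A10 to S100A1 had a named probe, and 13 were detected. Of the 46 genes in that stretch that are no S100 gene, most of them genes of skin barrier formation, 4 were detected, namely TCHH, SMCP, SPRR1A and SPRR1B. Of the 3 of them measured with shFOXA1, SPRR1A differed by 0.08, TCHH by at least 0.07 and SMCP by at least 0.14. The 7 measured members there ranged from -0.05 to 3.15, with S100A8 as a bound. The cornified envelope and wound keratin genes, in part from the same stretch, had 6 of 17 measured with shFOXA1, with a median of 0.08. Of these, 0 were higher and 0 lower by 2-fold, beside 1.11% and 0.377% of all genes. The wound keratin KRT16 was the furthest from control among them, at 4.35 with shCtr (not detected), 5.55 with shFOXA1 and 4.67 (not detected) with LY2157299 added. It was at least 0.87 higher with shFOXA1, and past 2-fold in 3 of the 8 alternatives (1.04 with detection p below 0.05). SFN differed by at least 0.21 and the transglutaminase TGM1 by -0.17 with shFOXA1, and TGM3 by -0.81 with TGFB3.

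**Figure D4:**
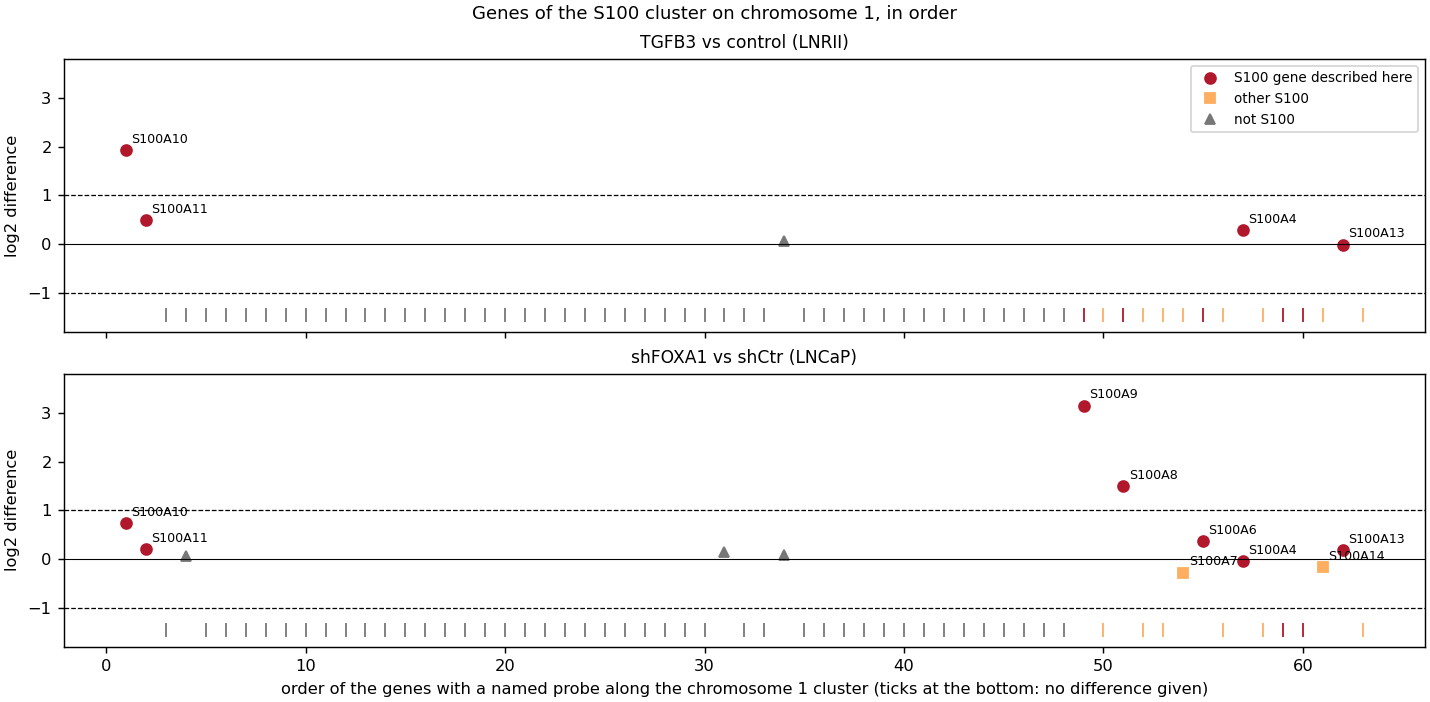
Log2 difference of the detected genes of the chromosome 1 cluster in gene order, with S100 members, other S100 genes and genes that are no S100 gene in separate colours, 1 array per side, bounds included as points and ticks for genes with no difference given. With shFOXA1, the points of S100A9 at 3.15 and S100A8 at its bound of 1.49 stood above those of their neighbours. Of these neighbours TCHH and SMCP are bounds too. S100A10 stood at 1.93 with TGFB3.

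The genes whose profile over the 5 arrays was nearest to each wide-ranging member were found by the root mean square distance between centred log2 values. These came from 1664 genes that ranged over at least 1 log2 unit, with undetected values below the floor of their array raised to it. S100A8 was detected on 2 arrays and S100A9 on 3, so elsewhere their profiles are floors, and their distances rest in part on these. Nearest to S100A9 were RGS4, a regulator of G-protein signalling (0.39), PI3 (0.43) and the sphingosine phosphate receptor S1PR3 (0.52). Nearest to S100A8 were HOXA11-AS (0.17), the folate enzyme SHMT1 (0.18) and the prostaglandin transporter SLCO2A1 (0.19). Nearest to S100A10 were the kinase PLK2 (0.18), the sorting receptor SORL1 (0.28) and TGFBI, a matrix protein named for its induction by TGF-beta (0.28). TGFBI read 7.21 in LNRII with TGFB3 and was at the floor on the other 4 arrays. S100P had no profile as near, its nearest being PRUNE2 (0.68), TRIM49D1 (0.72) and the arginase ARG2 (0.72).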

How the data were processed

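Total RNA of 5 cultures was read on 5 Illumina bead arrays, with 1 array per condition. The deposited scanner table gives a mean bead intensity per probe, not normalized per the file headers, and a detection p-value against the negative controls of each array, per the file headers. The scanner software was GenomeStudio, per the submitters' processing notes, which name no version. A second table holds the authors' processed intensity values. Its column medians were 4.7 (LNRII) and 4.5 (LNCaP), and its order of probes matched that of the scanner values (Spearman's rho 1.00). It was read as linear and background-subtracted, since 24.3% to 26.8% of its values were negative; its background method and centring are not given in the sources used here.

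Levels were computed from the scanner table with limma 3.58.1 in R 4.3.3 (neqc: normexp with the negative control level inferred from detection p-values, offset 16, quantile normalization over all 5 arrays, log2). A check on simulated data changed bright probes alone, so it does not cover dim ones such as S100A8. Of 47306 probes, 30107 had 1 symbol in the platform table, 8 several and 17191 none; 30068 matched GRCh38.p14 by Entrez identifier and 0 symbols were updated. A gene was read by its brightest probe among those detected on at least 1 array, at a detection p below 0.01. Comparisons took genes detected on 1 or both of their 2 arrays, and no difference is given where the floor of the undetected side lay above the detected value. Between 32.3% and 38.1% of probes were detected, at a mean intensity of 278 to 310. Precision is limited by the number of arrays. Genes to name besides the members were taken as every other detected S100 gene, from each list the 3 detected genes furthest from no difference, fixed partners, detected cluster genes and the 3 nearest profiles; not each of them is printed. The exceptions, named after their values were seen, are SAA1, DEFB4A and individual markers. The members and the 7 gene lists and 4 marker lists were chosen with earlier results of these data known. Tried as alternatives were 8 settings of background, scaling, table, probe choice and detection filter. Tables used pandas 2.3.3 and numpy 2.4.6 under Python 3.11.15, and plots used matplotlib 3.10.9.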

Additional observations from a re-analysis of the deposited data

How the results depend on the processing

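Under the 8 alternatives, 60 of the 64 recomputed counts of S100 members past 2-fold stayed within 1.5 times the reported count. The 4 others were counts of members higher than shCtr, with shFOXA1 and with shFOXA1 and LY2157299, which were 1 in place of 2 without background correction and with an offset of 50. S100A9 remained in each and S100A8 left; both settings by construction compress differences of dim probes. No difference of 2-fold or more changed sign. Of the 232 recomputed differences of members, 37 moved by more than the probe SD. Scaling to a common median moved the median of all genes to 0.25 with TGFB3, -0.13 with shFOXA1 and -0.12 with both against shCtr. S100P with TGFB3 then turned from -0.14 to 0.13. Counts over all genes depended more on the setting. With TGFB3, 200 higher ran from 86 to 435 and 124 lower from 31 to 232. With shFOXA1, 124 higher ran from 49 to 175 and 42 lower from 15 to 69. With LY2157299 against shFOXA1, 6 higher ran from 1 to 11 and 23 lower from 5 to 50. Against shCtr, 101 higher ran from 37 to 156 and 57 lower from 20 to 98. No paired analysis was possible because each condition had 1 array. Signal over background limits what can be read of S100A4, S100A6 and S100A8, whose levels lie within about 1.5 log2 units of the floor.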

Other observations

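Of 23 other EF-hand calcium-binding proteins with a probe, 20 were measured in each comparison, with 0 higher and 0 lower by 2-fold. Over all genes at most 1.87% were higher and 1.16% lower in a comparison, so nothing is read from these counts. The median log2 difference of the 20 was 0.23 with TGFB3 and 0.05 with shFOXA1. Furthest from control were the calpains, calcium-activated proteases, with CAPN1 at 0.82 with TGFB3 (1.08, past 2-fold, when arrays were scaled to a common median) and CAPN2 at 0.79 with shFOXA1. Among 9 receptors of extracellular S100 proteins with a probe, AGER, TLR4, CD36 and MCAM were not detected on any array. With shFOXA1 0 of the 4 measured passed 2-fold, beside 1.11% higher and 0.377% lower over all genes. LY96, the partner of the undetected TLR4, lay near the floor, at 4.78 with shCtr and 5.19 with shFOXA1. This difference of 0.41 ran from 0.13 to 0.47 over the alternatives.

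Of 14 transcription factors known at S100 promoters that had a probe, 11 were measured in each comparison. With TGFB3, KLF4 was 1.41 and STAT3 1.17 higher on the log2 scale, but 0.77 and 0.99, both short of 2-fold, without background correction. The other KLF4 probe gave 1.21, and the other STAT3 probes 0.93 and 0.92, short of 2-fold. FOS went the other way, by at most -0.68 with TGFB3 and by -0.39 with shFOXA1. With shFOXA1, JUN read 9.09 against 8.20 with shCtr and reached 9.52 with LY2157299 added, a difference of 1.32 from shCtr. JUNB read 5.05, 5.62 and 5.04 on the same 3 arrays. CEBPA differed by -0.39 with LY2157299 against shFOXA1.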
